A study of Mus musculus with 24 samples.

Results

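The change between day 7 and day 2 of neural differentiation was measured in the 4 mouse embryonic stem cell lines that lack Cdc14b, which accounted for 8 of the 24 libraries of the series. The 4 day 7 libraries were Cdc14b KO lines 1 and 3 and Cdc14ab KO lines 1 and 3, and the 4 day 2 libraries were the same lines earlier in the protocol. All 4 lines lack Cdc14b, and the Cdc14ab KO lines lack Cdc14a as well. The matching comparison lines kept Cdc14b: wild type lines 1 and 3 and Cdc14a KO lines 1 and 3, also sampled at both days. The labels give each line as a numbered clone of cells taken from blastocysts, so each genotype rests on 2 clones, and the day 7 and day 2 libraries of a line come from the same clone.

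Stem cells had been grown over feeder cells with LIF, the cytokine that sustains self-renewal, and were passed over gelatin at low density to remove the feeders. Differentiation began when this medium was replaced by N2B27, a serum-free neural medium, with EGF and FGF2. Day 2 cells were in this medium, and by day 7 the cells had been replated at high density on laminin and deprived of both growth factors since day 6. Reads came from the 3′ ends of polyadenylated transcripts, and values are normalized counts, which compare a gene between libraries and not 1 gene with another. Values of the lines are listed throughout in the order Cdc14b KO line 1, Cdc14b KO line 3, Cdc14ab KO line 1 and Cdc14ab KO line 3.

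Cdc14a and Cdc14b encode phosphatases that act on sites phosphorylated by cyclin-dependent kinases, and the title of the series links them to UTF1, a chromatin protein of pluripotent cells that binds bivalent promoters. In neural differentiation of mouse stem cells, the naive pluripotency network is first exchanged for a formative one with Fgf5, Pou3f1 and Dnmt3b. Neural progenitor genes such as Sox1, Pax6 and Nes follow, and then genes of the neuronal cytoskeleton and synapse. Trophectoderm is the outer layer of the blastocyst that forms the placenta. A minor 2-cell-like state, in which genes of the 2-cell embryo such as the Zscan4 and Usp17l families are active, appears sporadically in such cultures.

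The 8 libraries held 7208282 to 10856721 reads. Gm42418, a transcript that overlaps ribosomal RNA and rises with carry-over of it, took 1.38% to 4.25% of their reads. Cdc14b itself did not pass the test, with 106, 157, 101 and 132 at day 7 and 96.7, 212, 144 and 203 at day 2 (log2 change -0.36 ± 0.23, adjusted p = 0.37). Cdc14b overlaps the protein-coding gene Aaed1 on the same strand, and reads of the 2 may not be separated. Cdc14a was below the limit for testing, at 4.37 to 9.12 normalized counts at day 7 and 4.3 to 11 at day 2. Among the comparison libraries, wild type line 3 at day 7 carries a free-text label of not being differentiated that goes against its title and its medium, so results that use the intact lines are also given without that line. Reads of 3′ ends do not check a deletion whose position is not given. Utf1 had 1566, 2012, 1648 and 987 normalized counts at day 7, against 2442, 2112, 2078 and 1629 at day 2 (log2 change -0.44 ± 0.18, adjusted p = 0.18). It was lower at day 7 in each line, by less than the test could separate from the spread between lines.

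Of 14735 genes tested, 787 were called between day 7 and day 2 (5.34%), 429 higher (2.91%) and 358 lower (2.43%). The test was limma on log2(normalized count + 1) with the line as a block, and a call is a Benjamini-Hochberg adjusted p under 0.05 over all 14735 genes. Every adjusted p below is from this fit unless another is named, and a log2 change is day 7 minus day 2 ± SE over the 4 lines. The p-values reflect how far these 4 clones differ and take the clones as independent. Across genes, changes correlated at 0.758 and 0.462 between lines of the same number, against 0.258 to 0.340 for unlike numbers. SEs and p-values may therefore be too small. Changes of low genes are understated by the added 1. At least 2-fold, 405 genes were higher and 272 lower. Each of the 787 changed in the same direction in all 4 lines, which a call in a fit paired over 4 lines nearly requires. The values of the 2 days did not overlap in 600 of the 787, while they did not overlap in 2247 (15.2%) of all genes tested, higher at day 7 in 7.51% and lower in 7.74%. The count depended on the fit and on the lines. Without the line block no gene was called over these 8 libraries (2809 had an unadjusted p under 0.05), while an unblocked fit of all 24 libraries called 821, of which 531 were shared with the 787, and a term for day by clone number gave 2237. Without Cdc14b KO line 1 the count was 63, without Cdc14ab KO line 1 it was 57, without Cdc14b KO line 3 it was 216 and without Cdc14ab KO line 3 it was 983. In every one of these 4 fits, 45 genes were called, among them Csf1r, Tgm2, Tns4, Sct, H19, Krt7, Hand1, Col4a2, Dlk1, Tmem92, Dnmt3b, Pou3f1, Lefty2 and Fermt1.

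The genes with the highest changes were mostly near 0 at day 2. Tgm2, a transglutaminase that crosslinks proteins, had 745, 644, 1110.2 and 6156 normalized counts at day 7, against 52.8, 58.3, 60.2 and 85.6 at day 2 (log2 change 4.39 ± 0.41, adjusted p = 0.0094). Tns4, a tensin of focal adhesions, had 355, 252, 403 and 3119 at day 7, against 17.9, 16.9, 40.9 and 36.3 at day 2 (log2 change 4.43 ± 0.47, adjusted p = 0.0094). Genes were ranked among the highest or lowest only if their days did not overlap, so that separation was a condition of choice and not a result. In both Tgm2 and Tns4, Cdc14ab KO line 3 at day 7 was the highest library. Csf1r, the receptor of colony-stimulating factor 1, which is found on macrophages and in trophoblast, had 50.6, 38.5, 80.6 and 719 at day 7, against 0, 3.38, 1.08 and 3.63 at day 2 (log2 change 5.36 ± 0.62, adjusted p = 0.0099). Sct, the precursor of the hormone secretin, had 1018, 560.5, 1098 and 6000.4 at day 7, against 95.7, 46.5, 76.4 and 64.6 at day 2 (log2 change 4.33 ± 0.48, adjusted p = 0.0099). Cyp11a1, which makes pregnenolone from cholesterol in the first step of steroid hormone synthesis, had 47.6, 28, 52.1 and 529.6 at day 7, against 1.99, 5.07, 1.08 and 0.726 at day 2 (log2 change 4.80 ± 0.84, adjusted p = 0.025). Cdc14ab KO line 3 again stood highest at day 7, several-fold above the other lines.

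Several others of the 15 highest, though not all, encode proteins of the cell surface or secreted proteins. Plac1, a placental gene on the X chromosome, had 102, 7.87, 42.2 and 154 normalized counts at day 7, against 0, 0, 2.15 and 6.53 at day 2 (log2 change 4.49 ± 0.62, adjusted p = 0.016). Cdc14b KO line 3 was the lowest of its day 7 libraries and lay only a little above the highest day 2 library. Il2rb, the beta chain of the interleukin-2 receptor, had 69.9, 30.6, 72.7 and 666 at day 7, against 0.997, 2.53, 6.45 and 0.726 at day 2 (log2 change 5.05 ± 0.84, adjusted p = 0.022). Slc6a2, the noradrenaline transporter, had 112, 84.8, 133 and 823 at day 7, against 7.97, 3.38, 6.45 and 2.9 at day 2 (log2 change 4.96 ± 0.63, adjusted p = 0.014). For both, Cdc14ab KO line 3 was far above the other lines at day 7 while its day 2 level was the lowest. Gjb2 (connexin 26), Adra2b (an adrenergic receptor), Dnase1l3 (a secreted DNase), Prss12 (a serine protease) and Arhgef6 (an exchange factor for Rac and Cdc42) rose with log2 changes of 4.05 to 5.11. The last of the 15 were Fam90a1b and Fthl17a, X-linked genes with near-identical copies, whose values are uncertain for that reason.

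**Figure D1:**
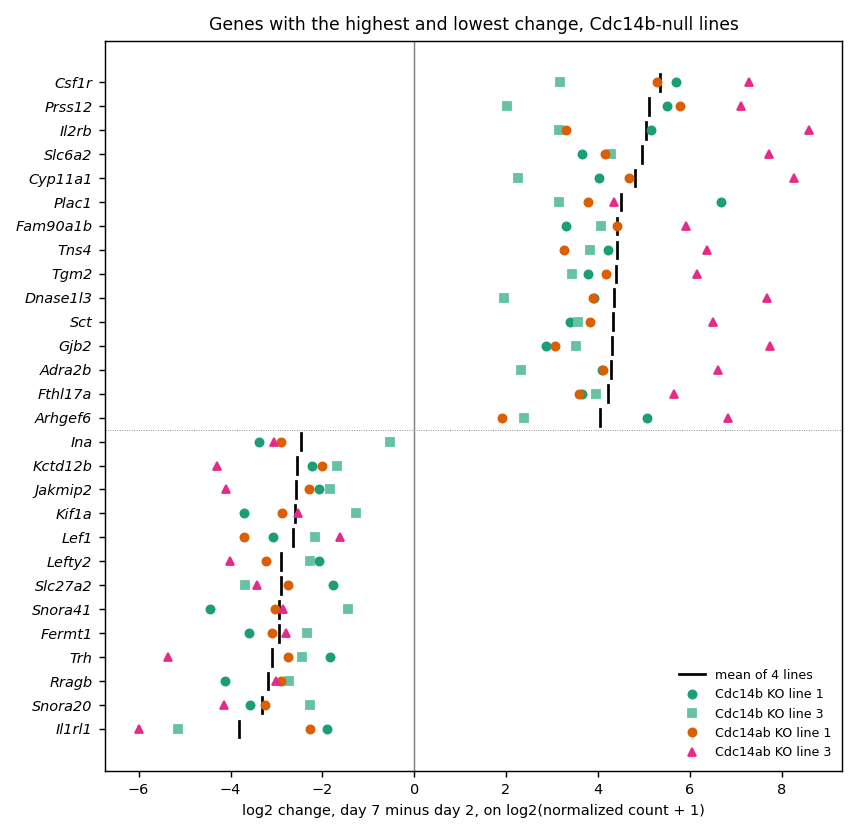
Log2 change from day 2 to day 7 (x axis, on log2(normalized count + 1)) of the 15 genes with the highest and 13 of the 15 with the lowest change among those called, 1 symbol per Cdc14b-null line, with the mean of the 4 lines as a bar. Cdc14ab KO line 3 lies to the right of the other lines in all upper genes but Plac1, at 7.29 for Csf1r and 7.74 for Gjb2.

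Trophectoderm genes rose together. Of 20 listed genes tested, 14 rose and none fell (70% called, against 5.34% of all genes). The median log2 change was 2.01, against 0.05 over all genes tested. The keratin Krt18, a simple-epithelial filament protein, had 2839, 2590.0, 3847 and 23242 normalized counts at day 7, against 578, 1511, 629 and 2442 at day 2 (log2 change 2.23 ± 0.35, adjusted p = 0.02). Krt7, another simple-epithelial keratin, had 340.3, 353, 447 and 2910.0 at day 7, against 36.9, 64.2, 34.4 and 146 at day 2 (log2 change 3.40 ± 0.31, adjusted p = 0.0094). Krt19 had 371, 187, 396 and 2039 at day 7, against 55.8, 76, 29 and 102 at day 2 (log2 change 3.01 ± 0.45, adjusted p = 0.018). Day 7 lay above day 2 without overlap for these 3 keratins, whereas Krt8, the partner of Krt18, overlapped because Cdc14ab KO line 3 already had 1428 normalized counts at day 2 and Cdc14b KO line 3 had 1315 at day 7. Lower amounts of a cell type and lower amounts of its RNA per cell cannot be told apart in these bulk samples, here and in all gene groups below.

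Transcription factors of the placental lineage rose as well. Hand1, required for trophoblast giant cells, had 56.7, 39.3, 47.2 and 304 normalized counts at day 7, against 4.98, 4.22, 6.45 and 12.3 at day 2 (log2 change 3.36 ± 0.39, adjusted p = 0.0099). Gata3, a trophectoderm factor, had 342, 162, 288 and 712 at day 7, against 124, 32.1, 147 and 109 at day 2 (log2 change 1.85 ± 0.31, adjusted p = 0.022). Tead4, the DNA-binding partner of YAP that acts upstream of Cdx2 in the blastocyst, had 114, 59.5, 136 and 309.7 at day 7, against 32.9, 22.8, 23.7 and 45 at day 2 (log2 change 2.08 ± 0.31, adjusted p = 0.018). In each of the 3 the lowest day 7 library was Cdc14b KO line 3 and the highest was Cdc14ab KO line 3. Esx1 and Dlx3, homeobox factors of the placenta, rose by 2.48 and 2.56 on the log2 scale, and Plet1, a surface protein of early trophoblast, by 2.53.

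The factors that define trophoblast stem cells did not pass the test. Cdx2 had 6.08, 4.37, 5.89 and 34.4 normalized counts at day 7, against 5.98, 25.3, 6.45 and 66.8 at day 2 (log2 change -0.83 ± 0.49, adjusted p = 0.32). Eomes had 51.7, 22.7, 34.4 and 47.8 at day 7, against 60.8, 25.3, 47.3 and 37 at day 2 (log2 change -0.12 ± 0.29, adjusted p = 0.83). Both stayed low in all 8 libraries, and their days overlapped. Gata2, Tfap2c, Cdh3 and Fgfr2, the other members without a call, had log2 changes of 2.0, 0.76, 0.82 and 0.23.

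The size of the trophectoderm change differed between lines. The list median was 1.96 in Cdc14b KO line 1, 1.0 in Cdc14b KO line 3, 1.80 in Cdc14ab KO line 1 and 2.40 in Cdc14ab KO line 3. Summed over the list, the level was 15397, 9601, 16901 and 65121 normalized counts at day 7, against 6919, 5844, 5904 and 10461 at day 2. Cdc14ab KO line 3 thus held the most at both days. At day 0 the sum was 2568 to 6723 normalized counts in the null lines. Such sums are set mostly by the most abundant members and do not show that every member was expressed before differentiation. Without Cdc14ab KO line 3, 13 members were called higher, without Cdc14b KO line 3 9, without Cdc14ab KO line 1 3 and without Cdc14b KO line 1 2, with list medians of 1.80 to 2.26. In Cdc14b-intact lines 11 of 20 rose and none fell, with a median of 1.31 (12 of 19 and 1.39 without wild type line 3), and no member passed the test of the difference between null and intact lines. Over all genes tested 12.2% rose and 7.07% fell in intact lines, and the intact counts of every list stand beside these shares.

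**Figure D2:**
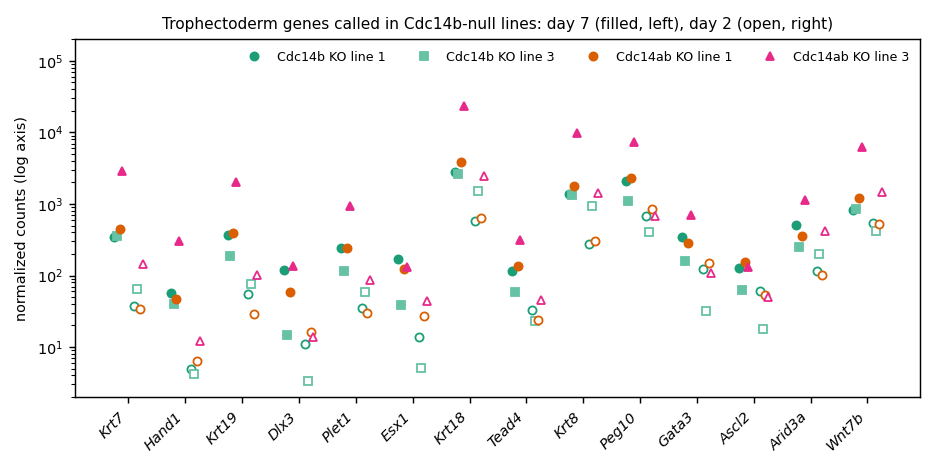
Normalized counts (log axis) of the 14 trophectoderm genes called in Cdc14b-null lines, at day 7 (filled symbols, left of each pair) and day 2 (open symbols, right), 1 symbol per line. Cdc14ab KO line 3 at day 7 is the highest library for most genes, at 23242 for Krt18 and 2910 for Krt7.

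Genes of the 2-cell-like state rose, least in Cdc14ab KO line 3. Of 8 listed genes tested 6 rose (75%, against 2.91% of all genes), with a median log2 change of 2.55 over the list. Tmem92 had 345, 191, 469.6 and 49.5 normalized counts at day 7, against 28.9, 11.8, 32.3 and 10.9 at day 2 (log2 change 3.34 ± 0.35, adjusted p = 0.0094). Duxf3, the locus of Dux, the factor that activates the genes of the 2-cell embryo, had 149, 102, 110.0 and 37.8 at day 7, against 15.9, 11, 11.8 and 8.71 at day 2 (log2 change 2.84 ± 0.33, adjusted p = 0.0099). Tcstv1 had 232, 122, 223 and 16.8 at day 7, against 1.99, 13.5, 9.68 and 5.08 at day 2 (log2 change 3.82 ± 0.68, adjusted p = 0.026). For all of these Cdc14ab KO line 3 was the lowest day 7 library, and its median change over the list was 0.49, against 3.34, 3.09 and 3.31 in the other lines.

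Zscan4c, a telomere regulator and marker of the state, had 81, 84.8, 80.6 and 10.1 normalized counts at day 7, against 14, 5.07, 17.2 and 9.43 at day 2, and did not pass (log2 change 2.13 ± 0.56, adjusted p = 0.066). Its day 7 value in Cdc14ab KO line 3 lay within the range of day 2. Summed over the list, the level was 1219, 783, 1266 and 152 normalized counts at day 7, against 94.7, 92.9, 112 and 66.8 at day 2. Without Cdc14ab KO line 3 all 8 members were called higher, and without any one of the other lines 2 were. Duxf3, Tcstv1, Usp17la and Usp17lc have near-identical copies in the genome, so reads may have been split among copies. In Cdc14b-intact lines 7 of 8 rose, with a median of 3.52 (8 of 8 and 3.96 without wild type line 3), and no member differed between null and intact lines by the test.

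Retinoic acid genes, which mark caudal and hindbrain patterning, rose in part. Of 16 tested, 6 rose (37.5%, against 2.91% of all genes) and none fell, with a median log2 change of 1.08. Nr2f1, an orphan nuclear receptor induced by retinoic acid, had 162, 733, 404 and 144 normalized counts at day 7, against 24.9, 50.7, 64.5 and 49.3 at day 2 (log2 change 2.66 ± 0.36, adjusted p = 0.016). Stra6, the receptor that takes up retinol, had 20.3, 73.4, 25.5 and 145 at day 7, against 11, 12.7, 2.15 and 8.71 at day 2 (log2 change 2.57 ± 0.51, adjusted p = 0.034). Day 7 lay above day 2 without overlap for both, with Cdc14b KO line 3 highest for Nr2f1 and Cdc14ab KO line 3 highest for Stra6. Cyp26b1, which degrades retinoic acid, had 81, 249, 164 and 729 at day 7, against 15, 153, 28 and 34.8 at day 2 (log2 change 2.48 ± 0.50, adjusted p = 0.036). Nr2f2 and Meis1 rose by 1.76 and 1.32 on the log2 scale. Without Cdc14ab KO line 3 the count was 7, and without another line 0 to 2.

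Of 36 imprinted genes tested 5 rose and 2 fell (19.4% called, against 5.34% of all genes), with a median log2 change of 0.16. Without either line numbered 1, 2 rose and none fell, without Cdc14b KO line 3 3 rose and 1 fell, and without Cdc14ab KO line 3 the counts were again 5 and 2. H19, the maternally expressed noncoding RNA of distal chromosome 7 (chr7:142575529-142578143, GRCm38), had 32118, 22121, 41752 and 16725 normalized counts at day 7, against 6267, 1969.5, 5882 and 1226 at day 2 (log2 change 3.11 ± 0.24, adjusted p = 0.0077). Its day 0 levels were 341, 687, 807 and 394, so the level was higher at each later day in every line. Mir675 overlaps H19 on the same strand, and reads of the 2 cannot be told apart. Dlk1, a paternally expressed ligand-like membrane protein, had 222, 862, 407 and 624 at day 7, against 59.8, 217, 40.9 and 145 at day 2 (log2 change 2.31 ± 0.28, adjusted p = 0.011). Cdkn1c, a maternally expressed inhibitor of cyclin-dependent kinases, had 940.0, 1163, 1411 and 9016 at day 7, against 331, 791, 411 and 886 at day 2 (log2 change 1.80 ± 0.39, adjusted p = 0.041). Dlk1 and Cdkn1c did not overlap between days, and Cdc14ab KO line 3 had the highest Cdkn1c level, several-fold above the next.

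Peg10 and Ascl2, imprinted genes needed for the placenta and also members of the trophectoderm list, rose by 2.01 and 1.45. Impact and Snrpn fell, Impact with 232, 102, 168 and 212 normalized counts at day 7, against 588, 596, 589.5 and 430.4 at day 2 (log2 change -1.67 ± 0.27, adjusted p = 0.021). Snrpn shares its locus and strand with Snurf, and the 2 transcripts may not be separated by 3′ reads. In Cdc14b-intact lines 14 of 34 imprinted genes rose and 4 fell, the same counts as without wild type line 3. No member passed the test of the difference between null and intact lines.

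Of 17 genes of the formative state tested, 4 fell (23.5%, against 2.43% of all genes), none rose and 13 did not pass. The median log2 change was -0.87. Pou3f1, a POU factor of the epiblast, had 279.6, 732, 247 and 443 normalized counts at day 7, against 1256, 1976, 1375 and 1681 at day 2 (log2 change -2.0 ± 0.21, adjusted p = 0.0094). Fgf5, a growth factor switched on as cells leave the naive state, had 5.06, 10.5, 0.982 and 0.839 at day 7, against 27.9, 27, 33.3 and 44.3 at day 2 (log2 change -3.07 ± 0.61, adjusted p = 0.034). Dnmt3b, a de novo DNA methyltransferase, had 1386, 1981, 1395 and 1505 at day 7, against 3746, 5270.1, 3699 and 5307 at day 2 (log2 change -1.52 ± 0.17, adjusted p = 0.0099). All day 7 values of the 3 genes lay below all day 2 values. The same held for Lef1, the nuclear partner of beta-catenin, with 7.09, 10.5, 6.88 and 6.71 at day 7, against 66.8, 50.7, 102 and 22.5 at day 2 (log2 change -2.64 ± 0.42, adjusted p = 0.021). Lef1 was also ranked among the lowest genes, which required days that did not overlap. The count was again 4 without Cdc14ab KO line 3, and without any one of the other lines it was 2.

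Inhibitors of Nodal, a TGF-beta family ligand of the epiblast that induces its own inhibitors, fell as well. Lefty2 had 425, 904, 212 and 245 normalized counts at day 7, against 1799, 4343, 1984 and 3942 at day 2 (log2 change -2.89 ± 0.32, adjusted p = 0.0099). Lefty1 had 334, 1218, 237 and 193 at day 7, against 1118, 3139, 1178 and 2526 at day 2 (log2 change -2.28 ± 0.35, adjusted p = 0.019). Lefty2 did not overlap between days, which its rank among the lowest genes required. Lefty1 did overlap because Cdc14b KO line 3 kept the highest day 7 level. Skil, a repressor of SMAD signalling that the pathway also induces, fell by 1.01 on the log2 scale. Nodal itself had a log2 change of -0.67 (adjusted p = 0.18). In all, 3 of 17 genes of the Nodal and TGF-beta list fell and 1 rose, Tgfbi, a secreted matrix protein, by 2.96. The share called was 23.5%, against 5.34% of all genes tested. Without 1 line, 1 to 4 genes of the list were called lower and 0 to 2 higher.

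Of the general pluripotency factors, 2 of 17 fell (11.8%, against 2.43% of all genes) and none rose, with a median log2 change of -0.53. Sox2, which acts in both pluripotent and neural cells, had 1015, 439.8, 944 and 477 normalized counts at day 7, against 2093, 704, 2011 and 858 at day 2 (log2 change -0.91 ± 0.17, adjusted p = 0.031). Its days overlapped because the lines numbered 1 were higher at both days. Lin28a, an RNA-binding protein that blocks let-7 maturation, had 766, 1999.8, 597 and 568 at day 7, against 1549, 2818, 1887 and 2649.6 at day 2 (log2 change -1.35 ± 0.28, adjusted p = 0.037). Pou5f1, the core pluripotency factor, had 8305, 7078, 8108 and 5371 at day 7, against 12661, 6847, 13116 and 6896 at day 2, and did not pass (log2 change -0.40 ± 0.18, adjusted p = 0.19). Sox2 lies within the noncoding gene Sox2ot on the same strand. Again 2 genes of the list were called lower without Cdc14ab KO line 3, and none without any one of the other lines.

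Naive factors were not lower at day 7 by the test. Of 17 tested, Tfcp2l1 and Fbxo15 rose (11.8%, against 2.91% of all genes) and none fell. The median log2 change was 0.15, with line medians of 0.13, 0.93, -0.01 and 0.61. In the fit without Cdc14ab KO line 3, 3 were called higher, and without any one of the other lines none was. Tfcp2l1, a factor of the naive network, had 1433, 766, 1478 and 1737 normalized counts at day 7, against 984, 258, 842 and 514 at day 2 (log2 change 1.17 ± 0.24, adjusted p = 0.037). Nanog had 1258, 263, 773 and 148 at day 7, against 743, 126, 602 and 243 at day 2 (log2 change 0.37 ± 0.30, adjusted p = 0.47). Klf4 had 403, 196, 771 and 1008 at day 7, against 2127, 185, 1533 and 197 at day 2 (log2 change -0.24 ± 0.63, adjusted p = 0.84). In Klf4 the lines numbered 1 were lower at day 7 and Cdc14ab KO line 3 was higher. In Cdc14b-intact lines 9 of 17 naive genes rose and none fell, with a median of 0.94 (8 of 17 and 0.87 without wild type line 3), and no member differed between the sets of lines by the test.

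Genes of sterol and fatty acid synthesis fell in part. Of 30 genes tested, 11 fell (36.7%, against 2.43% of all genes) and none rose. All 30 had a negative change, with a median log2 change of -0.81. Stard4, a carrier of cholesterol between membranes, had 99.3, 110.2, 94.3 and 213 normalized counts at day 7, against 379, 603, 352 and 439.8 at day 2 (log2 change -1.82 ± 0.26, adjusted p = 0.017). Fasn, fatty acid synthase, had 3948, 8886, 4394 and 3355 at day 7, against 12917, 11669, 12070.3 and 7819 at day 2 (log2 change -1.20 ± 0.23, adjusted p = 0.03). Stard4 did not overlap between days, and Fasn did because Cdc14b KO line 3 still had 8886 at day 7.

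Steps of the mevalonate and cholesterol pathway stood as follows. Hsd17b7, Nsdhl and Cyp51, which act on sterol intermediates, fell by 1.38, 1.29 and 0.85 on the log2 scale. Sqle, squalene epoxidase, had 398, 501, 353 and 636 normalized counts at day 7, against 766, 1450.1, 662 and 1286 at day 2 (log2 change -1.10 ± 0.19, adjusted p = 0.024). It fell without overlap, and Cdc14b KO line 3 was the highest library at day 2. Fdps, Mvd and Pmvk, enzymes between mevalonate and farnesyl pyrophosphate, fell by 1.04, 1.0 and 0.77.

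Several of these genes were at their peak at day 2. Hsd17b7 had 32.1, 87.8, 48.1 and 48.5 normalized counts at day 0, 149, 318, 112 and 235 at day 2 and 51.7, 78.7, 67.8 and 95.7 at day 7. Every line was higher at day 2 than at either other day. Without Cdc14ab KO line 3 12 genes of the list fell, without Cdc14b KO line 3 2, and without either line numbered 1 it was 1. In Cdc14b-intact lines 22 of 30 fell and none rose, with a median of -1.05 (20 of 30 and -0.93 without wild type line 3), and no member differed between null and intact lines by the test.

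**Figure D3:**
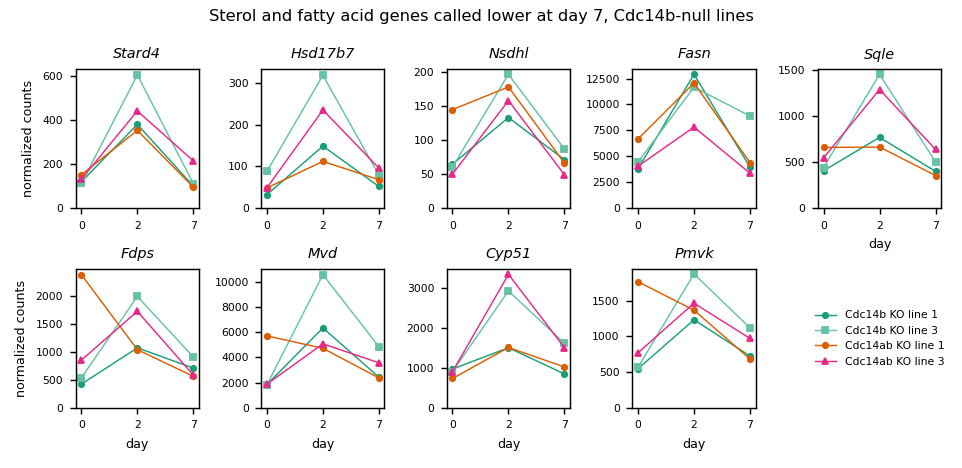
Normalized counts at days 0, 2 and 7 (x axis) of 9 of the 11 sterol and fatty acid genes called lower at day 7 than at day 2, 1 line per Cdc14b-null cell line, each panel with its own axis from 0. All but Fdps, Mvd and Pmvk are highest at day 2 in every line, whereas Cdc14ab KO line 1 has its highest Fdps, Mvd and Pmvk at day 0.

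Promoters of the sterol genes are shown because the genes fell together and because SREBP, the factor that drives them, acts with NF-Y, which binds CCAAT boxes. RefSeq windows (GRCm38.p6, 250 bases before to 50 after the gene start) were found for 20 of the 30 tested genes. CCAAT on either strand was present in 18 of these 20, among them all 6 of the called genes that had a window, and in 43.5% of 10502 tested genes with a window. The sterol regulatory element TCACNCCAC, on either strand, was in 1 of 20 and in 1.40% of all. A match is a run of letters and not a shown binding site. The 30 bases around a CCAAT box of the 6 called genes are given 5′ to 3′ on the strand of the gene, with the box in capitals (ATTGG where it lies on the other strand), at chr3:89454393-89454422 for Pmvk, chr8:122443432-122443461 for Mvd, chr5:4104709-4104738 for Cyp51, chrX:72918517-72918546 for Nsdhl, chr1:169969200-169969229 for Hsd17b7 and chr11:120824589-120824618 for Fasn.
Pmvk: aactcaggttggCCAATtcacagcatctag
Mvd: ccggccagcgggCCAATcatatggcagcgc
Cyp51: cgctgtccgccaCCAATctggtcctgagat
Nsdhl: ctgtgagcgtcaATTGGttgcgccagagcc
Hsd17b7: ggccgagccttgATTGGtcgaggtgcgcgt
Fasn: cctcggtgtccaATTGGtttcgatgtggag

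Genes of amino acid supply under ATF4, a stress-responsive transcription factor, were listed with genes of the unfolded protein response. Of 26 tested in this list, 4 fell (15.4%, against 2.43% of all genes) and none rose, with a median log2 change of -0.28. No member was called without either line numbered 1, 2 were lower without Cdc14b KO line 3 and 5 without Cdc14ab KO line 3. Slc7a3, an importer of cationic amino acids, had 376, 404, 235 and 97.4 normalized counts at day 7, against 806, 1221, 669 and 1255 at day 2 (log2 change -1.97 ± 0.39, adjusted p = 0.034). Psat1, an enzyme of serine synthesis, had 937, 1443, 892 and 469 at day 7, against 2071, 2061, 2071 and 1437 at day 2 (log2 change -1.12 ± 0.21, adjusted p = 0.03). Cdc14ab KO line 3 was the lowest day 7 library for both, and Slc7a3 did not overlap between days. Mthfd2, of mitochondrial folate metabolism, and Atf4 itself fell by 0.95 and 0.68 on the log2 scale. Rragb, a Rag GTPase that reports amino acids to mTORC1, was among the 15 lowest genes, with 2.03, 3.5, 5.89 and 3.36 at day 7, against 51.8, 28.7, 50.6 and 34.1 at day 2 (log2 change -3.19 ± 0.41, adjusted p = 0.014). Its days were far apart in every line, and days that did not overlap were a condition of that ranking.

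Others of the 15 lowest were of mixed roles. Fermt1 (kindlin-1), an activator of integrins, had 11.1, 71.7, 14.7 and 40.3 normalized counts at day 7, against 146, 363, 133 and 284 at day 2 (log2 change -2.95 ± 0.28, adjusted p = 0.0094). Trh, the precursor of thyrotropin-releasing hormone, had 52.7, 121, 35.4 and 7.55 at day 7, against 191, 663, 242 and 353 at day 2 (log2 change -3.10 ± 0.52, adjusted p = 0.022), after 1393, 1533, 4508 and 2511 at day 0. Il1rl1, the interleukin-33 receptor, had 3.04, 7.87, 0.982 and 0.839 at day 7, against 14, 311, 8.61 and 117 at day 2 (log2 change -3.83 ± 0.72, adjusted p = 0.03). Il1rl1 was highest at day 2 in the lines numbered 3, and Trh was highest at day 0 in every line. Slc27a2 (a fatty acid acyl-CoA synthetase), Kif1a (a kinesin motor of synaptic vesicle precursors), Jakmip2 and Kctd12b fell by 2.55 to 2.91 on the log2 scale. Snora20 and Snora41, small nucleolar RNAs, fell by 3.31 and 2.95, but each lies inside a protein-coding gene on the same strand, Tcp1 and Eef1b2, so the source of these polyadenylated reads is uncertain.

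In the Cdc14b-null lines 5.26% of neural progenitor and 14.8% of neuronal cytoskeleton and axon genes were called, against 5.34% of all genes tested. Of 19 neural progenitor genes tested, 1 rose and none fell, with a median log2 change of -0.43. The negative median rested on Cdc14ab KO line 3: the line medians were 0.22, 0.20, 0.25 and -1.65, and without that line the median was 0.20 with 1 gene called higher. Without any one of the other lines no member was called. Sox1 had 79, 218, 29.5 and 10.1 normalized counts at day 7, against 122, 166, 156 and 127 at day 2 (log2 change -1.53 ± 0.58, adjusted p = 0.15). Pax6 had 30.4, 116, 21.6 and 15.1 at day 7, against 11, 42.2, 14 and 31.2 at day 2 (log2 change 0.61 ± 0.46, adjusted p = 0.44). Nes, the intermediate filament of neural progenitors, had 69.9, 360.3, 165 and 63.8 at day 7, against 103, 253, 122 and 148 at day 2 (log2 change -0.20 ± 0.33, adjusted p = 0.73). In these 3 genes Cdc14b KO line 3 was the highest library at day 7 and Cdc14ab KO line 3 the lowest. Irx3, a homeobox factor of neural and other tissues, was the gene that rose, with 584, 1054, 641 and 4637 at day 7, against 249, 429.9, 302 and 437 at day 2 (log2 change 1.75 ± 0.38, adjusted p = 0.04).

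Among 27 genes of the neuronal cytoskeleton and axon, 1 rose and 3 fell, with a median log2 change of -0.33. Gap43, a growth cone protein, had 36.5, 94.4, 56 and 55.4 normalized counts at day 7, against 116, 308, 157 and 250.4 at day 2 (log2 change -1.74 ± 0.24, adjusted p = 0.016). Ina, the neuronal intermediate filament alpha-internexin, had 38.5, 212, 49.1 and 32.7 at day 7, against 412, 306, 373 and 280.1 at day 2 (log2 change -2.47 ± 0.45, adjusted p = 0.028). Nefl, the light neurofilament chain, had 28.4, 89.2, 58 and 30.2 at day 7, against 67.8, 173, 97.9 and 115 at day 2 (log2 change -1.21 ± 0.28, adjusted p = 0.048). Gap43 did not overlap between days, while Nefl did. Ina did not overlap either, which its rank among the lowest genes required. Cdc14b KO line 3 was highest at day 7 for all 3. Mapt, the microtubule protein tau, rose, with 257, 164, 246 and 128 at day 7, against 119, 51.5, 157 and 62.4 at day 2 (log2 change 1.11 ± 0.25, adjusted p = 0.043).

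The best known neuronal markers of the list did not pass. Tubb3, neuronal beta-tubulin, had 571, 849, 477 and 906 normalized counts at day 7, against 724, 802, 659 and 837 at day 2 (log2 change -0.15 ± 0.19, adjusted p = 0.65). Map2, a dendritic microtubule protein, had 56.7, 266, 87.4 and 52.9 at day 7, against 42.9, 187, 78.5 and 171 at day 2 (log2 change -0.15 ± 0.38, adjusted p = 0.83). Dcx, doublecortin of migrating neurons, had 24.3, 212, 41.3 and 18.5 at day 7, against 4.98, 5.91, 5.38 and 10.2 at day 2, just short of the threshold (log2 change 2.64 ± 0.62, adjusted p = 0.05). Dcx was higher at day 7 in all 4 lines without overlap, most in Cdc14b KO line 3, whereas Tubb3 and Map2 overlapped. Without Cdc14ab KO line 3, 3 of the list rose and 3 fell, without Cdc14b KO line 3 2 fell, and without either line numbered 1 no member was called.

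The 5 other neural lists had calls in 4.76% (synapse) to 9.09% (neural crest) of their tested genes, against 5.34% of all genes tested. Neurod1, a proneural factor, fell among 20 tested, with 15.2, 15.7, 15.7 and 5.04 normalized counts at day 7, against 52.8, 44.8, 42 and 35.6 at day 2 (log2 change -1.79 ± 0.35, adjusted p = 0.033), and lies within the Cerkl gene on the same strand. Elavl2, a neuronal RNA-binding protein, fell among 13, with 139.8, 191, 110.0 and 83.1 at day 7, against 494, 476, 578 and 418 at day 2 (log2 change -1.96 ± 0.24, adjusted p = 0.013). Syt11 fell among 21 synaptic genes, by 1.43 on the log2 scale. Nfia, a factor of the switch to gliogenesis, rose among 17 glial genes by 2.48, and Tfap2a rose among 11 neural crest genes by 2.35. Elavl2 and Neurod1 were lower at day 7 in every line without overlap. Without any one of the lines other than Cdc14ab KO line 3 these 5 lists had no call, except that the RNA-binding list kept 1 without either Cdc14b KO line. None of 24 Hox genes was called, with a median of 0.03 and line medians of 0.63, 0.30, 0.95 and -1.69, and 3 were called higher without Cdc14ab KO line 3.

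**Figure D4:**
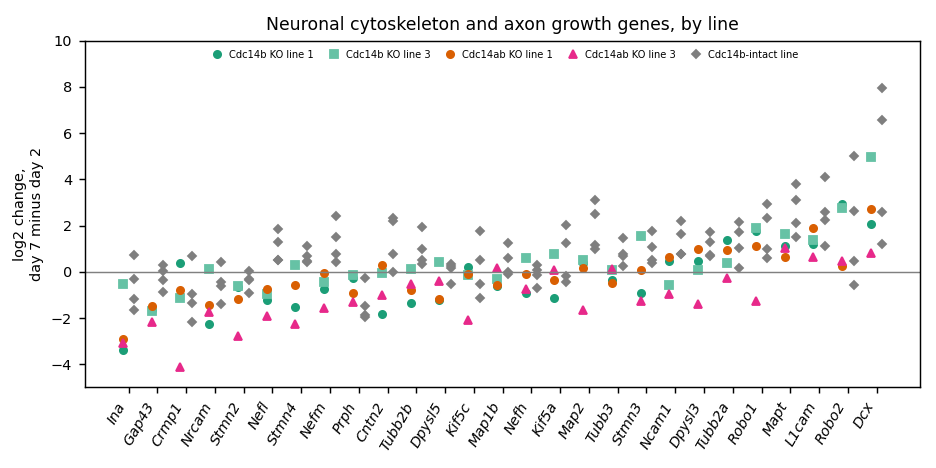
Log2 change from day 2 to day 7 (y axis) of the 27 genes of the neuronal cytoskeleton and axon, 1 colored symbol per Cdc14b-null line on the left of each position and 1 grey diamond per Cdc14b-intact line on the right. The median change is -0.33 over null lines and 0.94 over intact lines (0.76 without wild type line 3), and Cdc14ab KO line 3 is often the lowest null line.

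Markers of other cells moved unevenly. Of 29 fibroblast and extracellular matrix genes, which would also mark feeder cells, 1 rose and 1 fell (6.90% called, against 5.34% of all genes). The line medians were 0.98, -1.13, 1.42 and -1.39, positive in the lines numbered 1 and negative in those numbered 3. Summed over the list, the level was 10281 to 15249 normalized counts at day 7 and 4926 to 21782 at day 2. S100a4, a calcium-binding protein of fibroblasts and other motile cells, had 14.2, 160.0, 33.4 and 118 at day 7, against 132, 4639, 155 and 1269 at day 2 (log2 change -3.39 ± 0.39, adjusted p = 0.0099). It overlaps the protein-coding gene Gm42674 on the same strand. Col1a1, a main fibrillar collagen, had 631, 696, 1549 and 159 at day 7, against 37.9, 677, 71 and 417 at day 2 (log2 change 1.78 ± 0.90, adjusted p = 0.26). Both were highest at day 2 in the lines numbered 3. The part of such cells in the other results was not tested.

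Basement membrane collagens Col4a1 and Col4a2 rose, the 2 calls among 11 endoderm genes tested (18.2%, against 5.34% of all genes). Col4a2 had 134, 283, 262 and 1006 normalized counts at day 7, against 18.9, 83.6, 33.3 and 78.4 at day 2 (log2 change 2.78 ± 0.32, adjusted p = 0.0099). Sparc, a matrix glycoprotein made in quantity by parietal endoderm and fibroblasts, was the gene of the fibroblast list that rose. It had 6230.3, 7155, 8872 and 11185 at day 7, against 3128, 5470.3, 3581 and 3741 at day 2 (log2 change 1.07 ± 0.21, adjusted p = 0.035). Sox17, an endoderm factor, stayed at 1.96 to 25.2 at day 7 and 0 to 4.35 at day 2, below the limit for testing. Des, the muscle intermediate filament desmin, rose by 1.67, the only call among 13 contractile genes (7.69%, against 5.34% of all genes). It was not called without either line numbered 1. Within the epithelial list, 28% of 25 genes tested were called. In it, 4 keratins rose and Esrp1, Rab25 and Krt42 fell, by 1.0, 2.33 and 1.95. In the 3 that fell, every day 7 value was below every day 2 value, but without any one of the lines other than Cdc14ab KO line 3 no member of the list was called lower.

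Cell cycle genes bear on phosphatases of mitotic exit. The share called was 3.1% for mitotic genes, 11.1% for G1-S and replication and 8% for inhibitors and p53 targets. Over all genes tested it was 5.34%. Of 32 mitotic genes 1 fell, the checkpoint kinase Ttk, with 391, 348, 524 and 378 normalized counts at day 7, against 1011, 633, 1111 and 613 at day 2 (log2 change -1.0 ± 0.19, adjusted p = 0.031). Of 27 genes of G1-S and replication 3 fell and none rose. Ccnd1, cyclin D1, had 315, 798, 381 and 447 at day 7, against 842, 3366, 785 and 2343 at day 2 (log2 change -1.73 ± 0.25, adjusted p = 0.018). Pcna and Pola1, of the replication fork, fell by 0.93 and 1.08 on the log2 scale. Ttk was lower at day 7 in every line without overlap, whereas Ccnd1 was much higher in the lines numbered 3 at day 2 and overlapped. The inhibitor Cdkn1c and the stress gene Gadd45b rose among 25 inhibitors and p53 targets, and Cdkn1a had a log2 change of -0.25 (adjusted p = 0.47). Without any one of the lines other than Cdc14ab KO line 3, no mitotic gene and no inhibitor or p53 target was called, and 0 or 1 gene of G1-S and replication.

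Of 23 hypoxia and glycolysis genes tested 3 rose (13.0%, against 2.91% of all genes). The line medians were -0.31, 0.67, -0.90 and 0.91, negative in the lines numbered 1 and positive in those numbered 3. The fit without Cdc14ab KO line 3 had 2 higher and 1 lower, and without any one of the other lines none was called. Ndrg1, a hypoxia-induced gene, had 514, 256, 461 and 3508 normalized counts at day 7, against 90.7, 88.7, 86.1 and 89.3 at day 2 (log2 change 2.92 ± 0.53, adjusted p = 0.028). Slc2a1, the glucose transporter GLUT1, had 2735, 3108, 1645 and 3902 at day 7, against 1016, 1492, 1065 and 2349.9 at day 2 (log2 change 0.96 ± 0.19, adjusted p = 0.034). P4ha1, a collagen prolyl hydroxylase, rose by 1.19. The day 2 values of Ndrg1 lay within 86.1 to 90.7 in the 4 lines, and Cdc14ab KO line 3 was the highest at day 7. In the signalling lists, Hes6 and Lfng of the Notch pathway fell by 1.15 and 1.48, Wnt3 fell by 1.72, Wnt7b rose by 1.23, and Boc, a Hedgehog co-receptor, rose by 2.31. The share called was 12.5% for Notch, 15.4% for Wnt and 6.25% for Hedgehog genes, against 5.34% of all genes tested. Without any one of the lines other than Cdc14ab KO line 3, no gene of the Notch and Hedgehog lists was called. No BMP, MHC class I or mitochondrially encoded gene was called.

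**Figure D5:**
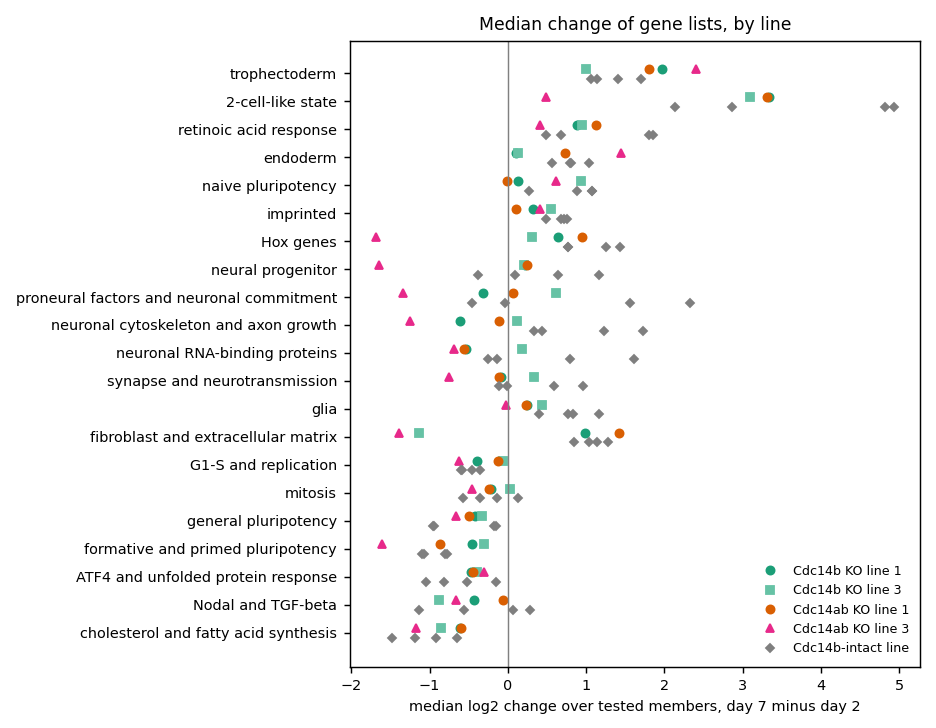
Median log2 change from day 2 to day 7 (x axis) over the tested members of 21 gene lists, 1 colored symbol per Cdc14b-null line above and 1 grey diamond per Cdc14b-intact line just below. Cdc14ab KO line 3 has the highest trophectoderm median (2.40) and the lowest Hox (-1.69) and neural progenitor (-1.65) medians, and the fibroblast medians of null lines 1 and 3 lie on opposite sides of 0.

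The 4 lines did not change alike. At least 2-fold changes were seen in 26.1% of the 14735 genes in Cdc14b KO line 1, 19.5% in Cdc14b KO line 3, 23.1% in Cdc14ab KO line 1 and 34.0% in Cdc14ab KO line 3. Across genes, changes of the 2 lines numbered 1 correlated at 0.758 and those of the 2 lines numbered 3 at 0.462, while pairs of unlike number gave 0.258 to 0.340. Genes are not independent replicates, and the labels do not say what lines of the same number share. The corresponding values in Cdc14b-intact lines were 0.688, 0.703 and 0.360 to 0.552. Between Cdc14ab KO and Cdc14b KO, no gene passed the test of a difference in the change (0.0% of 14735; 200 genes at an unadjusted p under 0.05, 226 with DESeq2 and 196 with edgeR, neither of which called a gene). With 2 lines a genotype and a median SE of 0.65, differences of moderate size were not detectable here, and the genotypes are not thereby shown to act alike.

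The median log2 change of X-linked genes was below that of autosomal genes in each null line, at -0.20, -0.17, -0.33 and -0.20, against 0.01 to 0.07 for autosomal genes. This is a description with no test. The fitted median log2 change of 514 X-linked genes tested was -0.23, against 0.06 for autosomal genes, while in Cdc14b-intact lines it was -0.02 for 507 X-linked genes and 0.05 for autosomal genes (-0.04 and 0.03 without wild type line 3). Without 1 null line the X-linked median was -0.24 to -0.20, and the intact lines ran from -0.08 to 0.08. Xist, the RNA of the inactive X chromosome, had 44.6, 7.87, 46.2 and 11.8 normalized counts at day 7, against 25.9, 16.9, 20.4 and 13.1 at day 2 (log2 change 0.19 ± 0.43, adjusted p = 0.82). It was low throughout, and its levels at day 7 were higher in the lines numbered 1. Y-linked genes and Xist together summed to 49.8 to 92.3 normalized counts at day 7 in null lines and to 100 to 525 in intact lines. The part of the clones' sex chromosomes in the X-linked medians was not tested. Rragb, Slc7a3, Nsdhl, Pola1 and Kctd12b, among the genes that fell, are X-linked, and the part of the lower X-linked median in their changes was not tested.

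The response of the null lines was then set against that of the Cdc14b-intact lines, in which 2853 of 14812 genes were called (19.3%), 1806 higher (12.2%) and 1047 lower (7.07%). Of the 787 genes called in the null lines, 599 were also called in the intact lines, which is 76.1% of the first set and 21% of the second. Of these, 335 were higher in both, 263 lower in both and 1, Nefl, lower in the null and higher in the intact lines. Over 14168 genes tested in both, the fitted changes correlated at 0.761. Without wild type line 3, 2537 genes were called in intact lines, 555 of them shared with the null lines (70.5% and 21.9%), and the correlation was 0.741. No library is shared between the 2 comparisons. A gene called in 1 set and not in the other is not shown to differ, so the difference itself was tested as an interaction over 16 libraries.

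A single gene, Evx1, passed that test (0.00642% of 15587 tested; 922 genes had an unadjusted p under 0.05). Evx1 encodes a homeobox factor of spinal interneurons and of the primitive streak and lies beside the Hoxa cluster (chr6:52313498-52318378, GRCm38). In null lines it had 1.01, 8.74, 3.93 and 5.88 normalized counts at day 7, against 20.9, 23.6, 8.61 and 15.2 at day 2, and in wild type lines 1 and 3 and Cdc14a KO lines 1 and 3 it had 25.6, 214, 21.7 and 74.9 at day 7, against 0, 15.2, 0 and 10.4 at day 2. Every null line was lower at day 7 and every intact line higher. The change was -1.75 ± 0.54 (adjusted p = 0.098) in null lines and 3.93 ± 0.45 (adjusted p = 0.00021) in intact lines, and their difference was -5.67 ± 0.70, adjusted p = 0.025. The call was lost in 10 of 18 other fits, with adjusted p of 3.4e-06 to 1 over all of them, among them the fits without Cdc14ab KO line 3 (adjusted p = 0.057), wild type line 1 (0.14), wild type line 3 (0.18), Cdc14a KO line 1 (0.18) and Cdc14a KO line 3 (0.063). On the recovered reads DESeq2 called 46 genes (0.295%), 5 higher and 41 lower, and edgeR none.

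The genes next to Evx1 by p, named after their values were seen, did not pass. Ccnd2, cyclin D2, had 674, 5378, 1570.0 and 1168 normalized counts at day 7 and 1364, 7020.1, 1671 and 2278 at day 2 in null lines, against 6147, 16761, 4921 and 9932 at day 7 and 1490.2, 4980.4, 2155 and 4541 at day 2 in intact lines (difference in log2 change -2.14 ± 0.31, adjusted p = 0.061). Nefl had a difference of -2.24 ± 0.38, adjusted p = 0.12, with 341, 1101, 311 and 667 at day 7 and 239.8, 302, 218 and 276 at day 2 in intact lines. Day 7 was lower than day 2 in all null lines for both genes and higher in all intact lines. Dtx4, a ubiquitin ligase linked to Notch, and Nfib, a nuclear factor of neural progenitors, had differences of -2.69 and -2.79 (adjusted p = 0.067 and 0.12). With a term for day by clone number Ccnd2 (adjusted p = 0.04) and Dtx4 (0.037) did pass, and Nefl and Nfib did not (0.069 each).

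No member of any list passed the test of the difference between the sets of lines, and the list medians of the difference are a description. Intact lines had more calls over all genes tested: 12.2% rose and 7.07% fell, against 2.91% and 2.43% in null lines. The counts of a list are to be read beside these shares. For the neuronal cytoskeleton and axon, 1 rose and 3 fell of 27 in null lines, against 15 that rose and 1 that fell of 27 in intact lines, and the median difference in log2 change was -1.07, against -0.01 over all genes. For proneural factors, none rose and 1 fell of 20 in null lines, against 9 that rose and none that fell of 24 in intact lines, with a median difference of -0.92. For Hox genes the counts were none of 24 in null lines, against 8 that rose and 1 that fell of 21 in intact lines, with a median difference of -0.80. Of the lists that are not neural, the 2-cell-like state had a median difference of -0.99 and fibroblast and matrix genes -0.84. Map2 had 650.0, 2377, 476 and 1236 normalized counts at day 7 and 290.1, 273, 237 and 219 at day 2 in intact lines (difference -2.10 ± 0.55, adjusted p = 0.47). Hoxb4 had 70.9, 380.4, 139.5 and 55.4 at day 7 and 37.9, 236, 49.5 and 125 at day 2 in null lines, against 351, 961, 311 and 522 at day 7 and 40.6, 163, 50.6 and 78.8 at day 2 in intact lines (difference -2.26 ± 0.48, adjusted p = 0.29). Without wild type line 3, 8 rose and 3 fell of 27 neuronal cytoskeleton and axon genes in intact lines, 6 rose and 2 fell of 24 proneural factors, and 8 rose and none fell of 20 Hox genes. The median differences between null and intact lines were then -0.78 for the cytoskeleton and axon, -0.33 for proneural factors -0.88 for Hox genes, -1.35 for the 2-cell-like state and -1.07 for fibroblast and matrix genes, against -0.02 over all genes.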

How the data were processed

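The authors deposited 1 table of signal values, 17545 genes by 24 libraries, and the submitters' processing notes name DESeq2. Those notes also list HTSeq 0.6.1, TopHat2 2.0.10, Bowtie 1.0.0 and GRCm38 as the build, and the annotation is not given in the sources used here. Per the labels' protocols, the libraries were QuantSeq 3′ FWD, stranded. Each library's deposited values were whole multiples of 1 step (100% within a tolerance of 0.001), so the normalized counts were reads divided by a size factor, and whole reads were recovered for the count-based alternatives.

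The scale for testing was log2(normalized count + 1). Genes with 10 or more in at least 2 of the libraries compared were tested with limma 3.58.1 in R 4.3.3 (trend and robust), with line as a block and Benjamini-Hochberg adjustment over all genes. The pairing comes from the labels, where the same clone was sampled at both days. Deviations of the 4 null lines from the day means correlated between days at 0.164 to 0.253. In intact lines they did so at -0.023 to 0.191. The differences between null and intact lines, and between Cdc14ab KO and Cdc14b KO, were interaction terms in such fits. The procedure was run on simulated data. Those libraries were drawn independently, with no response shared by lines of the same number, so the simulation does not check p-values under such sharing.

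The comparison and the gene lists were chosen with earlier results of these data known. Named genes were Cdc14a, Cdc14b, Utf1, the 15 highest and 15 lowest called genes (same direction in all 4 lines, days not overlapping, mean of at least 20, no predicted genes, pseudogenes, Y-linked genes or Xist) and up to 6 called members of each list, with uncalled members given by value. A few genes that this rule names are not reported here. Alternatives were no line block, no filter or a filter of 50, a pseudocount of 0.25 or 5, TMM factors, edgeR 4.0.16, DESeq2 1.42.0, all 24 libraries, leaving out each line (for wild type line 3 also over the gene lists, added after the data were seen), and, also added then, a term for day by clone number. Symbols were matched to GENCODE M21 (17473, 99.6%), which gave coordinates and same-strand overlaps. No library was left out. The 2 libraries of each genotype and day were not duplicates, and other pairs were not compared. Figures were drawn with matplotlib 3.10.9.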

Additional observations from a re-analysis of the deposited data

Results flagged for a closer look

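In 11 of 109 named genes 1 of the 4 null lines stood apart from the other 3 in its change from day 2 to day 7, while chance flags about 1 in 20 groups of independent values. These genes were mostly named for being called and their changes are not independent, so that rate is no measure for them. Over all 14735 genes tested the share was 5.49%, and Cdc14ab KO line 3 was the line apart in 53.4% of those. In 8 of the 11 the line was Cdc14ab KO line 3. Its log2 change was above that of the other lines for Slc6a2 (7.72), Gjb2 (7.74), Sct (6.52), Peg10 (3.46) and Irx3 (3.40). It was below that of the other lines for Duxf3 (2.00) and Usp17la (0.30), and more negative for Dnmt3b (-1.82). Cdc14ab KO line 1 stood apart for Dlk1 (3.28), and Cdc14b KO line 3 for Ina (-0.53) and Prdm1 (-2.16).

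Evx1 differed between the sets of lines by the interaction test, with a difference in log2 change of -5.67 (null minus intact). Nefl was lower at day 7 in all 4 null lines and higher in all 4 intact lines, with a difference of -2.24 that did not pass the test (adjusted p = 0.12).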

How the results depend on the processing

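Day 7 against day 2 gave 787 genes in null lines. The count was 725 and 772 with pseudocounts of 0.25 and 5, 827 without a filter, 616 with a filter of 50, 844 with TMM factors, 710 with edgeR, 1721 with DESeq2, 821 in the fit of all 24 libraries (531 of them shared with the 787) and 2237 with a term for day by clone number, which leaves each number its own response. It was 0 without the replicate block, where the smallest adjusted p was 0.053, and 57 to 983 without 1 line. In intact lines the count of 2853 was 1802 without the replicate block, 1355 with all 24 libraries, 5370 with the clone number term and 1306 to 2744 without 1 line, with 1612 without Cdc14a KO line 1 and 1306 without Cdc14a KO line 3. The 1 gene that differed between null and intact lines became 0 without the replicate block, with a pseudocount of 0.25, with a filter of 50, with edgeR and with all 24 libraries. It became 46 with DESeq2, 5 with the clone number term (Evx1, Ifi44, Vcam1, Dtx4 and Ccnd2) and 0 to 5 without 1 line. Between Cdc14ab KO and Cdc14b KO the count stayed 0 in the other fits and was 0 to 5 without 1 line, where a lone line of a genotype is assumed to vary like the others. Of the 30 highest and lowest genes, 14 kept their call without either line numbered 1, 19 without Cdc14b KO line 3 and 29 without Cdc14ab KO line 3. No named gene changed sign in any of these fits. The blocked and unblocked fits gave the same log2 changes and differed in their errors.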
